A study of Rattus norvegicus with 8 samples.

Results

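Vegfa, Tgfb1, Igf1 and Fgf2 are secreted growth factors of skin repair and were followed here in wounded skin of newborn rats. They were chosen by their Ensembl gene IDs, which are ENSRNOG00000019598 for Vegfa, ENSRNOG00000020652 for Tgfb1, ENSRNOG00000004517 for Igf1 and ENSRNOG00000017392 for Fgf2. All 4 were on the array, which carried 19752 Ensembl IDs, and they had 10 of its 38948 probes. The array files give only the IDs, so the gene names came with the list of IDs. Of the 10 probes, 7 passed the filter on dim probes, which required that the scanner software had found the spot on at least 4 of the 8 arrays. These 7 belonged to Vegfa, Tgfb1 and Igf1, so 3 genes were tested and Fgf2 was not.

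The wounded group had 4 skin samples from Long-Evans rat pups that received a 3-mm incision on the back 3 days after birth, with skin collected at the cut 36 h later. The control group had 4 skin samples from pups of the same strain without a cut, taken at the matching place. The labels name no transgene and no drug for either group, and they give the age and the interval for the wound only. Whether every sample was a separate pup is not stated, so p-values rest on the variation among the 8 samples, part of which may be technical.

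Growth factors of a wound reach its cells by different routes. Tgfb1 encodes a factor that is stored in latent form in platelets and matrix. Once released, it signals through receptor serine/threonine kinases and SMAD proteins, and it is known for recruiting fibroblasts and raising matrix deposition. Igf1 encodes an insulin-like factor made in skin largely by dermal cells, which signals through a receptor tyrosine kinase and supports growth of keratinocytes and hair follicles. Vegfa encodes the main growth factor for blood vessel endothelium and is induced by low oxygen. Fgf2 encodes a fibroblast growth factor that binds heparan sulphate, leaves cells without a signal peptide and stimulates fibroblasts and endothelial cells.

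The sequences just upstream of Tgfb1, which rose, and of Vegfa, which did not pass the test, are shown side by side as the regulatory regions of the tested members with the largest and the smallest log2 fold change. Each is the 250 bases before an annotated transcript start in RefSeq's GRCr8 assembly, on the plus strand, matched by gene symbol. Capitals mark the GC box GGGCGG, the only one of 3 searched motifs found in either window.
Tgfb1, chr1:90324062-90324311: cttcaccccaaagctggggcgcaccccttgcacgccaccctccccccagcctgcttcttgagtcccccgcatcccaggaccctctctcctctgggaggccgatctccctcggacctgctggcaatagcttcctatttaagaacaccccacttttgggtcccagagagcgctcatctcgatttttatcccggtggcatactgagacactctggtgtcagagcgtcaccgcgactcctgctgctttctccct
Vegfa, chr9:22452604-22452853: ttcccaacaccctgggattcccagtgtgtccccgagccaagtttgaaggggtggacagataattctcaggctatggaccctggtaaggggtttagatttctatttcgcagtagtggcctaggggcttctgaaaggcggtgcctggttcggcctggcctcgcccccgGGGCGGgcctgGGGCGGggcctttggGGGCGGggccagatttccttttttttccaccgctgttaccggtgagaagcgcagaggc
Both strands were searched for the GC box, for the AP-1 motif TGANTCA and for ACGTG, the core of the hypoxia response element, and none of the matches overlapped. The Vegfa window held 3 GC boxes, and the Tgfb1 window held 0 matches to any of the 3 motifs. A further annotated Vegfa window and the Igf1 window held 0 matches, and the Fgf2 window held 1 match to ACGTG. Of 33469 windows of this length in the table, 30.5% held a GC box, 16.6% ACGTG and 6.34% the AP-1 motif. These matches describe letters only, and binding was not measured. Sequence farther upstream was not searched, so a window without a match does not mean a gene without the motif.

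The arrays differed in brightness and in spots marked as bad. The brightest spot on control 2 read 27951 intensity units, against 38351 to 49584 on the other 7 arrays, and wounded 1 had 55 bad spots, against 0 to 3 on the others. The software found 43.5% to 51.4% of the probes per array, the median background was 41 to 44 intensity units, and the Pearson r across features was 0.883 to 0.936 between arrays of different groups and 0.955 to 0.981 within a group. Of 12769 features tested by limma with Benjamini-Hochberg adjustment at 0.05, 1023 were higher and 1232 lower in wounded skin, or 8.01% and 9.65%, and 17.7% changed in either direction. Scaling each array by its median instead of quantile normalization gave 960 higher and 761 lower. A feature is an Ensembl ID, represented by its brightest tested probe, or a probe without such an ID. Markers of skin and its cell types could not be checked by name, since the array IDs are not paired with symbols in the sources used here. In a whole piece of skin, more RNA per cell and more cells of one type cannot be told apart. All arrays were scanned on 1 day with the controls before the wounded samples, so scan order and wounding cannot be told apart. Control 1 (366670) and wounded 4 (368382) carry array numbers apart from those of the other 6, which are 367201 to 367205 and 367210. These 6 are called the common run by their numbers alone, which need not mark a batch. The deviations of control 1 and wounded 4 from their group means correlated at 0.40 across features, against 0.15 for the next of the 16 pairs.

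Tgfb1 rose about 2-fold in wounded skin, on both of its probes. It was the only one of the 3 tested growth factors to pass the test, against 8.01% of all features called higher in wounded skin. The first Tgfb1 probe (R003383_01) gave log2 signals of 10.08, 9.94, 10.40 and 10.42 in wounded samples 1 to 4, against 9.20, 8.95, 9.22 and 9.49 in control samples 1 to 4. The lowest wounded sample lay above the highest control sample, so the groups did not overlap. The means were 10.21 ± 0.24 in wounded skin and 9.22 ± 0.22 in control skin (SD, n = 4 each). The log2 fold change was 1.00 ± 0.20 (SE), or 1.99-fold with a 95% interval of 1.48 to 2.68, and the limma adjusted p over all features was 0.00185. In scanner units, the spot stood 1202, 1075, 1286 and 1233 above its local background in wounded samples 1 to 4, against 645, 283, 480 and 747 in control samples 1 to 4. Control 2, the lowest of them, was also the array with the fewest probes found, 16930.

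The second Tgfb1 probe (ENSRNOG00000020652), which was dimmer, also passed the test. Its log2 signals were 7.93, 8.26, 8.08 and 7.36 in wounded samples 1 to 4, against 7.17, 7.02, 6.60 and 7.12 in control samples 1 to 4. Wounded 4 was lowest of its group and control 3 lowest of the other, and the groups again did not overlap, as held in one direction or the other for 20.3% of all tested probes with a value on every array. The means were 7.91 ± 0.39 in wounded skin and 6.98 ± 0.26 in control skin (SD, n = 4 each). The log2 fold change was 0.93 ± 0.21 (SE), a 1.91-fold rise. Its limma adjusted p was 0.0041 over the 19444 tested probes, of which 8.09% were called higher. The rises of the first and the second Tgfb1 probe differed by 0.06 on the log2 scale, and a 2-sided exact permutation test over samples did not tell them apart (p = 0.857, and 0.857 after adjustment over 5 pairs of probes of one gene). Among the 4745 Ensembl IDs with 2 tested probes, both probes were called higher in 322, or 6.79%.

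Of the 1023 features called higher, 413, or 40.4%, had a larger log2 fold change than Tgfb1, and the median rise of the 1023 was 1.84-fold. Among all features tested, 3.27% had a larger log2 fold change than Tgfb1. The offset of 50 added in the background correction draws changes of dim probes toward 0. With local background subtracted instead, the log2 fold change was 1.04 ± 0.23 (SE) for the first probe and 1.36 ± 0.32 (SE) for the second, with limma adjusted p of 0.0045 and 0.0082 over all probes. In the authors' deposited table, whose log2 values are net of background, the difference of the group means was 1.20 for the first probe and 1.46 for the second.

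**Figure D1:**
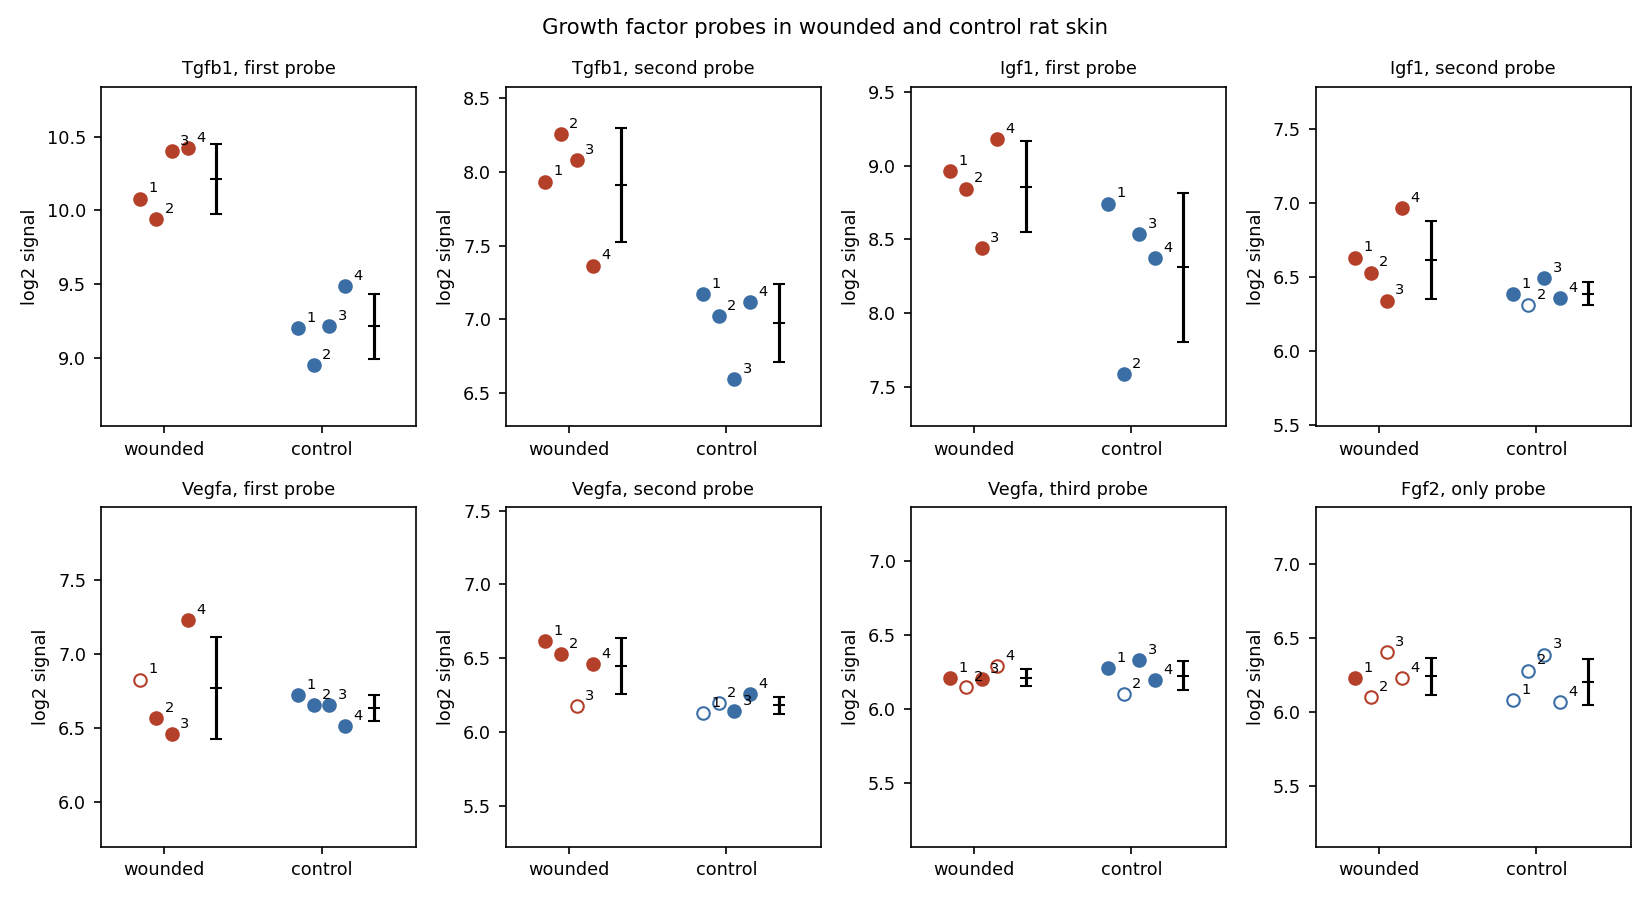
Normalized log2 signal of 8 growth factor probes in 4 wounded (red) and 4 control (blue) samples, numbered by sample, with open circles where the scanner software did not find the spot and bars for mean ± SD. Each panel spans the same range of log2 units around its own centre. Wounded and control samples are apart for both Tgfb1 probes and overlap for the other 6.

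Igf1 was higher on average in wounded skin but did not pass the test. Its first probe (ENSRNOG00000004517) was found on all 8 arrays and gave log2 signals of 8.96, 8.84, 8.44 and 9.18 in wounded samples 1 to 4. In control samples 1 to 4 the values were 8.74, 7.59, 8.54 and 8.38. Wounded 3 lay within the range of the controls, and control 2 lay well below the other 7 samples. The means were 8.86 ± 0.31 in wounded skin and 8.31 ± 0.51 in control skin (SD, n = 4 each). The log2 fold change was 0.55 ± 0.24 (SE), or 1.46-fold with a 95% interval of 1.02 to 2.09, and the limma adjusted p was 0.138. The interval is not adjusted for the number of features, which is why it can leave out 1 while the adjusted p misses the threshold. Without control 2, the array with the dimmest maximum and the fewest probes found, the log2 fold change was 0.31 and the adjusted p 0.424. The part of array brightness in this value was not tested.

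The second Igf1 probe (Rn30004038) was close to background. Its spot stood 49, 42, 19 and 63 intensity units above background in wounded samples 1 to 4 and 32, 17, 32 and 30 in control samples 1 to 4. Its log2 fold change was 0.23 ± 0.13 (SE), with a 95% interval of -0.03 to 0.49 and a limma adjusted p of 0.237 over all probes. Wounded 4 was highest of all 8 samples on both Igf1 probes, and within the common run of 6 arrays the log2 fold changes were 0.58 on the first and 0.11 on the second, with limma adjusted p of 0.156 and 0.561 over all probes. The changes of these probes were not told apart by the exact permutation test (difference 0.32 on the log2 scale, 2-sided p = 0.2, adjusted 0.5). The other Igf1 probes, Rn30004036 and Rn30004037, were found on 0 of 8 arrays and stood 3 to 14 intensity units above background, so they give no fold change.

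Vegfa was near the lower limit of these arrays and showed no change that passed the test on any of its 3 probes. The first probe (Rn30018040) had log2 signals of 6.83, 6.57, 6.46 and 7.23 in wounded samples 1 to 4, against 6.72, 6.66, 6.66 and 6.51 in control samples 1 to 4. The wounded samples spread to both sides of the controls, with wounded 4 highest and wounded 3 lowest of all 8. The means were 6.77 ± 0.34 in wounded skin and 6.64 ± 0.09 in control skin (SD, n = 4 each). The log2 fold change was 0.13 ± 0.15 (SE), or 1.10-fold with a 95% interval of 0.881 to 1.37, and the limma adjusted p was 0.59. Without wounded 4 the log2 fold change was -0.02, with an adjusted p of 0.945. The offset compresses changes at this signal, and with local background subtracted the log2 fold change was 0.16 ± 0.35 (SE).

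The other Vegfa probes were also close to background. The second probe (Rn30018041) stood 48, 42, 12 and 28 intensity units above background in wounded samples 1 to 4, against 15, 13, 14 and 24 in control samples 1 to 4. Wounded 1, 2 and 4 lay above all controls and wounded 3 below them in these units. Its log2 fold change was 0.27 ± 0.10 (SE), with a 95% interval of 0.06 to 0.48 and a limma adjusted p of 0.0785 over all probes. The software found this spot on 3 wounded and 2 control arrays, and not on wounded 3. The probe passed the threshold with cyclic loess normalization (0.30, adjusted p = 0.0485) and without wounded 3 (0.36, adjusted p = 0.0166). It missed the threshold in every other setting tried for single probes. There the limma adjusted p ran from 0.0813 with median scaling to 0.208 with local background subtracted (0.79 ± 0.40 SE). The third probe (ENSRNOG00000019598) was found on 2 wounded and 3 control arrays and gave a log2 fold change of -0.01 ± 0.08 (SE), with an adjusted p of 0.934. The second and the third probe differed in change by 0.28, a size that the exact permutation test did not tell from 0 (2-sided p = 0.114, adjusted 0.5).

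Fgf2 was not measurable at the sensitivity of these arrays. Its only probe (ENSRNOG00000017392) was found on 1 of 4 wounded arrays and on 0 of 4 control arrays. The spot stood 21, 14, 22 and 16 intensity units above background in wounded samples 1 to 4 and 12, 16, 26 and 13 in control samples 1 to 4. In these units the wounded values lie within the range of the control values. The highest is from a control array, control 3, on which the software did not find the spot. On the normalized log2 scale wounded 3 was the highest, at 6.40 against 6.39 in control 3. In a fit without the filter on dim probes, the log2 fold change was 0.04 ± 0.10 (SE), with a 95% interval of -0.16 to 0.24, which at this signal says little about the transcript.

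**Figure D2:**
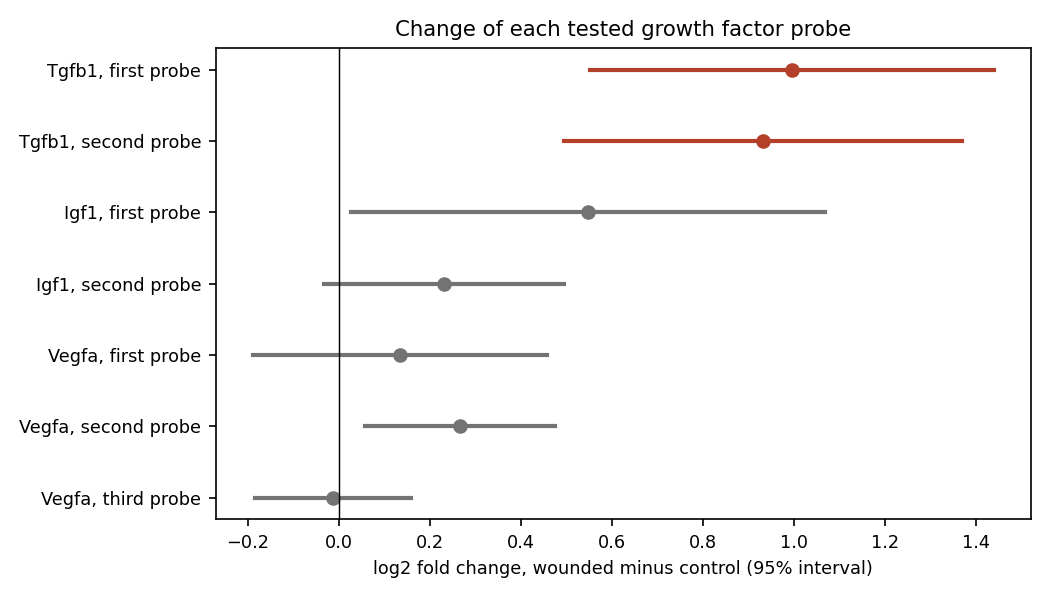
Log2 fold change of each of the 7 tested probes, wounded minus control, with unadjusted 95% intervals from limma (n = 4 each). Red marks adjusted p under 0.05 over all tested probes. Both Tgfb1 probes lie near 1, and the 5 probes of Igf1 and Vegfa lie between -0.01 and 0.55.

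The sizes of the changes were set against each other on the same arrays, by testing over samples the difference of the log2 signals of 2 genes in each array. Tgfb1 rose by 0.86 more than Vegfa on the log2 scale, and this was the most extreme of the 70 ways to regroup the samples (2-sided exact permutation p = 0.0286, the smallest that 4 against 4 samples allow). After adjustment over the 3 pairs of genes the p was 0.0857, and 1 pair alone cannot go below that value in this design, so the adjusted p says nothing for or against a difference. In the same exact permutation test, the change of Igf1 exceeded that of Vegfa by 0.41 (p = 0.0857, adjusted 0.129), and that of Tgfb1 exceeded that of Igf1 by 0.45 (p = 0.229, adjusted 0.229). The order Tgfb1, Igf1, Vegfa by fold change is given as a description, and the tests of its neighbours did not tell them apart. The first Vegfa probe is dim, and the offset draws changes of dim probes toward 0. With local background subtracted instead, the log2 fold changes were 1.04 for Tgfb1 and 0.16 for Vegfa, against 1.00 and 0.13 with the offset. The difference between the genes was not tested in that setting.

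**Figure D3:**
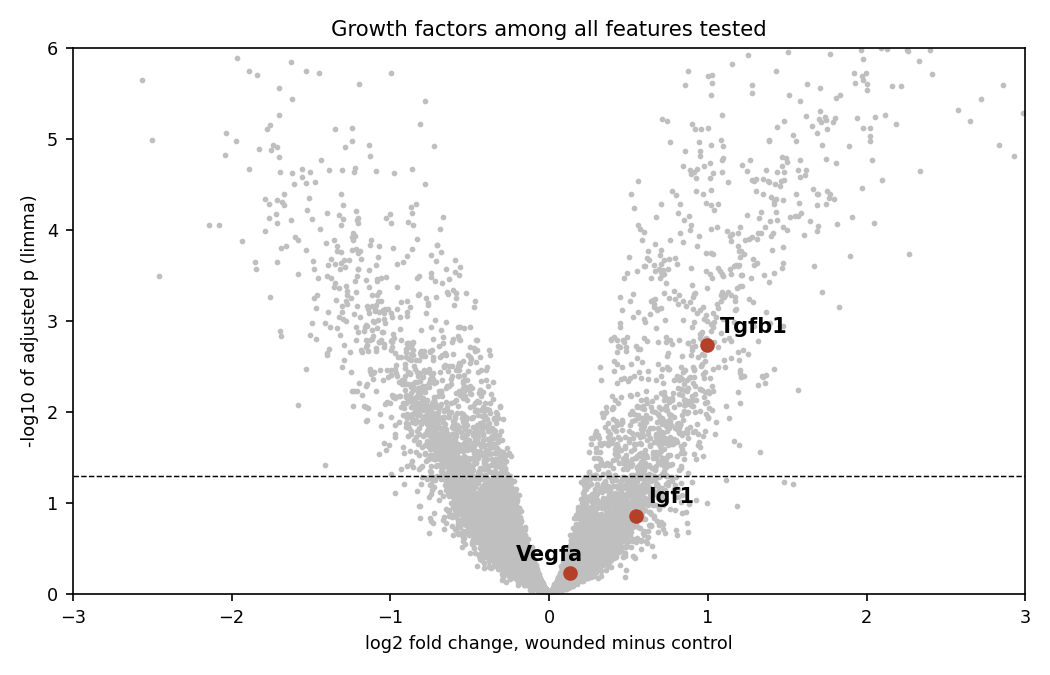
Log2 fold change (horizontal, wounded minus control) against -log10 of the limma adjusted p (vertical) for the tested features in grey, with the 3 tested growth factors in red and the 0.05 threshold as a dashed line. Tgfb1 lies above the line at 1.00, Igf1 and Vegfa below it at 0.55 and 0.13, and 139 features lie outside the plotted range.

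The wounded samples differed from each other in these genes. Wounded sample 4 was the highest of its group on both tested Igf1 probes, on the first and the third Vegfa probe and on the first Tgfb1 probe. On the second Vegfa probe sample 1 was the highest, at 6.62 against 6.46 in sample 4, and on the second Tgfb1 probe sample 4 was the lowest. The order of the 4 samples was not shared by all probes of Vegfa or of Tgfb1. With 4 samples a group, no correlation between the genes was computed.

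For each tested gene, the feature with the most similar pattern was sought among 12754 others by Pearson r over the 8 arrays. For Tgfb1 it was ENSRNOG00000022610 (r = 0.987), which rose by 0.90 ± 0.13 (SE) on the log2 scale with a limma adjusted p of 8.82e-05. Its means were 7.08 ± 0.26 in wounded skin and 6.19 ± 0.13 in control skin (SD, n = 4 each). For Igf1 it was ENSRNOG00000003687 (r = 0.99) and for Vegfa ENSRNOG00000009525 (r = 0.976), with log2 fold changes of 0.41 and 0.08 and limma adjusted p of 0.236 and 0.818. These are the highest of many coefficients over 8 arrays that fall into 2 groups, and the 3 IDs carry no gene name in the files. The receptors, binding proteins and targets of the 4 growth factors could not be looked up for the same reason.

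**Figure D4:**
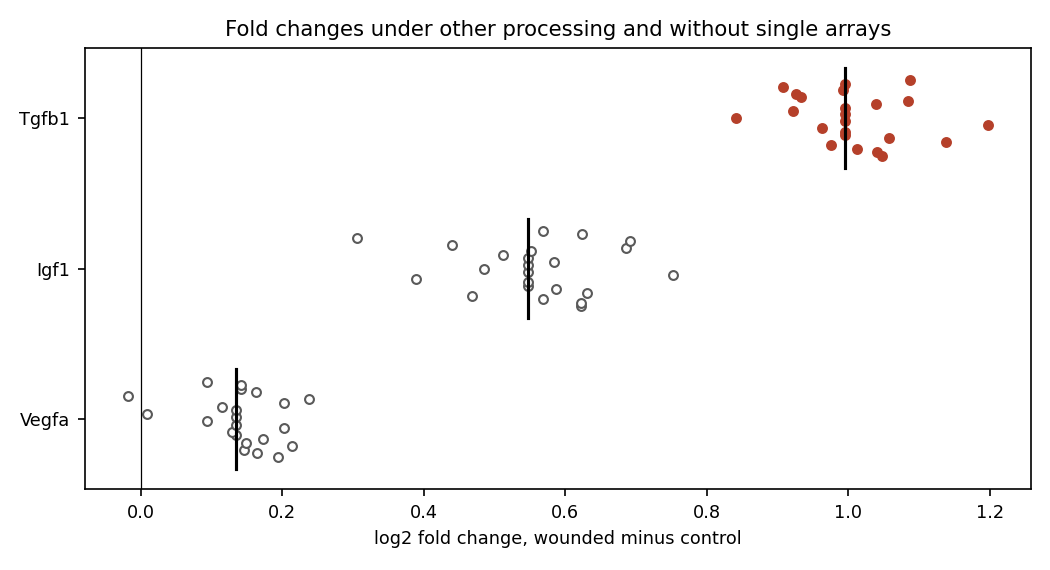
Log2 fold change of Tgfb1, Igf1 and Vegfa (wounded minus control) under the other processing settings and without each array in turn. Filled red points passed the limma adjusted p of 0.05 and open points did not, and the black bars give the values of the chosen processing. Tgfb1 lies between 0.84 and 1.20, Igf1 between 0.31 and 0.75, and Vegfa between -0.02 and 0.24.

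Across the processing settings tried, the call for each gene held when taken on its brightest probe or on the mean of its probes. The second Vegfa probe alone passed with cyclic loess and without wounded 3, as given above. Tgfb1 passed in 23 of 23 alternatives, with log2 fold changes of 0.84 to 1.20 and limma adjusted p of 0.00059 to 0.0112. Igf1 passed in 0 of 23, with 0.31 to 0.75 and adjusted p of 0.069 to 0.424. Vegfa passed in 0 of the 22 alternatives that gave it a value, with -0.02 to 0.24 and adjusted p of 0.316 to 0.973. Within the common run of 6 arrays, without control 1 and wounded 4, the log2 fold change of Tgfb1 was 0.92 (adjusted p = 0.0112).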

How the data were processed

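Skin RNA from 4 wounded and 4 control samples was hybridised in one colour. Per the file headers, GenePix Pro 4.1.1.4 read the spots of a scan at 635 nm without normalization, and the deposited intensity values are linear. Per the labels, biotin-labelled cRNA was hybridised. A second deposited file holds the authors' log2 values of 16198 probes, 4 of them members. Set against the scanner values, 99.9% to 100% equalled log2 of foreground minus background plus 1 constant per array within 0.011. Column medians lay between 6.98 and 7.06, so scale and direction are known, genes are not centred, while how its probes were chosen was not found in the labels or headers.

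With limma 3.58.1 in R 4.3.3, median foregrounds were corrected by normexp (offset 50). Of 40320 spots per array, 1240 without a gene probe were left out. Spots marked bad, 65 over all 8 arrays together, were left out as well. Values were quantile normalized and compared by lmFit and eBayes with a trend, 2-sided, and p-values were adjusted by Benjamini-Hochberg. The number of arrays limits the precision. The members and lists were chosen with earlier results of these data known. All members and their probes are named, with the 1 feature most like each tested gene. Pathway and cell type lists were not matched, since the GRCr8 gene table gives Ensembl IDs in 0 of 47357 rows. Plots were drawn with matplotlib 3.10.9. The limma fit was tested on simulated data with independent normal noise. That simulation held no shared variation between arrays, so it does not show that the p-values hold where samples are related. Alternatives covered background, foreground, normalization, filter, probe rule, the authors' values, variance model, array weights, blocks, array runs and leaving out each sample.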

Additional observations from a re-analysis of the deposited data

Results flagged for a closer look

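Among 20 sets of 4 samples (the tested growth factor probes and 3 measures of array quality, each in the wounded and the control group), 2 sets passed the limit set for a sample apart from its group. Chance gives about 1 in 20 for continuous values, a rate that does not apply to whole numbers with ties. On the array of wounded 1, the software marked 55 spots as bad, and on those of wounded 2, 3 and 4 it marked 2 to 3. Control 3 had a median background of 44 intensity units, and controls 1, 2 and 4 had 43, a step of 1 unit between tied whole numbers that does not set this array apart. The 14 sets of growth factor signals gave none.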

How the results depend on the processing

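Over 23 alternatives, 111 of 114 values had the direction and call of the reported result or, for counts, stayed within 1.5 times. The exceptions were Vegfa without wounded 4 (-0.019, against 0.13 with all samples), 625 features higher with only probes found on all 8 arrays, and 761 lower with median scaling. The filter on all 8 arrays left 9582 features to test, against 12769 with the chosen filter. Settings of filter, variance model and blocks left the fold changes of Tgfb1, Igf1 and Vegfa unchanged where they gave a value, so only the call could move there. All alternatives draw on the same 8 arrays and are not independent of each other. Rises made up 55.8% of the calls with median scaling, 53.6% with cyclic loess and 45.4% with quantile normalization. The causes of the moves in Vegfa, with median scaling and with the filter on all 8 arrays were not tested. Dropping each sample in turn from the normalized values gave log2 fold changes of 0.91 to 1.09 for Tgfb1, 0.31 to 0.69 for Igf1 and -0.019 to 0.24 for Vegfa, with 840 to 1058 features higher and 890 to 1321 lower. With a replicate block by sample number, the adjusted p was 0.0031 for Tgfb1, 0.141 for Igf1 and 0.62 for Vegfa, with fold changes as before, and 987 features were higher and 1079 lower. Deviations of same-numbered samples had correlations of -0.28 to -0.01, and for 0 of 8 samples was its own number the best match. Vegfa gave no value with only probes found on all arrays, and Fgf2 gave one only without the filter (0.04). Signals close to background limit Vegfa, Fgf2 and 3 of the 4 Igf1 probes.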
